A study of Mus musculus with 3 samples.

Results

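TBX5 binding was examined at 44 genes that run or restrain the cell division cycle. The genes were named by symbol for their known roles, and they are 44 of the 21631 protein-coding genes that RefSeq places on chromosomes 1 to 19 and X. They comprise 16 cyclins, cyclin-dependent kinases (CDKs) and CDK inhibitors, 17 genes of DNA replication and mitosis, and 11 other regulators. The 16 are 8 cyclins, 4 kinases and 4 inhibitors, and the 17 are 9 replication and 8 mitosis genes. The 11 are 6 E2F and pocket protein genes, 2 CDC25 phosphatases, and Mycn, Myc and Foxm1. TBX5, a T-box transcription factor of the heart, was mapped by chromatin immunoprecipitation and sequencing (ChIP-seq) in whole hearts of CD-1 mouse embryos at E14.5. CD-1 is an outbred stock, and no mutant allele or treatment is named in the labels. The groups were chromatin precipitated with an anti-TBX5 antibody, in 2 biological replicates, and 1 sample of input chromatin.

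Both TBX5 samples had been pooled before peaks were called, so 1 value per peak exists and no spread between replicates could be computed. A gene counts as bound here if the summit of a deposited peak, its position of highest signal, lies in the gene body or within 10 kb of it. Fold enrichment, a value of the authors, divides the ChIP fragments at the summit by the local background after 1 is added to each. The 95% interval in brackets after a fold is the Poisson interval of the summit fragment count and covers counting error only. The list held 12436 peaks with a median of 22 fragments and a median fold of 5.67 (range 2.11 to 85.6). As a check of the tissue label, 10 of 10 cardiomyocyte marker genes (Tnnt2, Myh6, Myh7, Actc1, Myl2, Myl7, Tnni3, Ryr2, Ttn and Actn2) were bound, against 29.9% of all protein-coding genes. Of the other lists, 3 of 8 endothelial, 2 of 8 fibroblast and epicardial and 2 of 6 blood markers were bound, counts near that share that say little of these cell types. For hepatocytes, a cell type foreign to the heart, it was 1 of 6. Whole hearts mix several cell types, and a site bound in fewer cells cannot be told apart from one bound more weakly in each cell.

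Cyclins activate CDKs, and the kinases phosphorylate the pocket proteins (RB1, RBL1, RBL2), which releases E2F factors to switch on replication genes. CDC6 and CDT1 then load the MCM helicase onto replication origins, PCNA clamps the polymerase to DNA, and a later wave of genes for the spindle, its checkpoint and chromosome separation drives mitosis. CDK inhibitors oppose these steps. In the mouse, heart muscle cells divide throughout fetal life and largely leave the cycle after birth.

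Of the 44 genes 21 were bound (47.7%, Clopper-Pearson 95% interval 32.5 to 63.3), against 29.9% of all protein-coding genes. Among cyclins, CDKs and inhibitors 9 of 16 were bound (56.3%, 29.9 to 80.2), and among replication and mitosis genes 9 of 17 (52.9%, 27.8 to 77.0). The difference between these groups was 3.31 percentage points. Its interval of −27.8 to 33.5 treats genes as independent draws and covers no spread between samples. It is a description and not a test, and with so few genes no difference in either direction is claimed. The other regulators had 3 of 11 bound (27.3%, 6.02 to 61.0), a share close to that of all genes. By role the counts were 3 of 8 cyclins, 3 of 4 CDKs, 3 of 4 inhibitors, 2 of 6 E2F and pocket protein genes, 5 of 9 replication genes, 4 of 8 mitosis genes, 0 of 2 CDC25 phosphatases and 1 of 3 among Mycn, Myc and Foxm1. These shares describe this peak list, since genes are not replicates and the members were chosen with earlier results known.

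The bound members were mostly short genes. Over 5 equal groups of protein-coding genes by length, from shortest to longest, the bound share climbed from 12.3% through 22.6%, 26.8% and 33.1% to 54.9%. Under this rule a longer gene covers more bases in which a summit can lie, and why the share climbed was not tested beyond that construction. The members had a median body of 14106.5 bp, against 17329 bp for all protein-coding genes. In the second group, with bodies of 4316 to 11869 bp, 11 of 16 members were bound, beside 22.6% of all genes there. In the shortest group it was 2 of 3, and in the middle group 4 of 13, beside 26.8%. Of the 5 members in the longest group, with bodies of at least 57776 bp, E2f3 alone was bound, while Ccnd3, Cdk6, Rb1 and Rbl1 had no summit. The 3 bound of 7 members in the fourth group were Rbl2, Top2a and Bub1.

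The 26 summits at the 21 genes were mostly weak promoter peaks. The authors' promoter class, summits within 2000 bp of a transcription start of any gene, held 19 of the 26 (against 24.6% of all peaks). Counting these peaks alone, 17 members were bound (38.6%), against 17.3% of all genes. Counting the other peaks alone, it was 5 members (11.4%), against 17.5% of all genes. The member summits had a median fold of 4.03 (range 2.95 to 32.4), and 20 of 26 lay below the median of all peaks. The 19 promoter peaks had a median of 3.93, beside 4.40 over all 3055 promoter peaks and 6.23 over all other peaks. With only the peaks of a −log10 q of at least 10, a stricter threshold, 5 members stayed bound (11.4%), against 13.8% of all genes, namely Ccne2, Cdkn2c, E2f3, Mcm2 and Top2a.

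**Figure D1:**
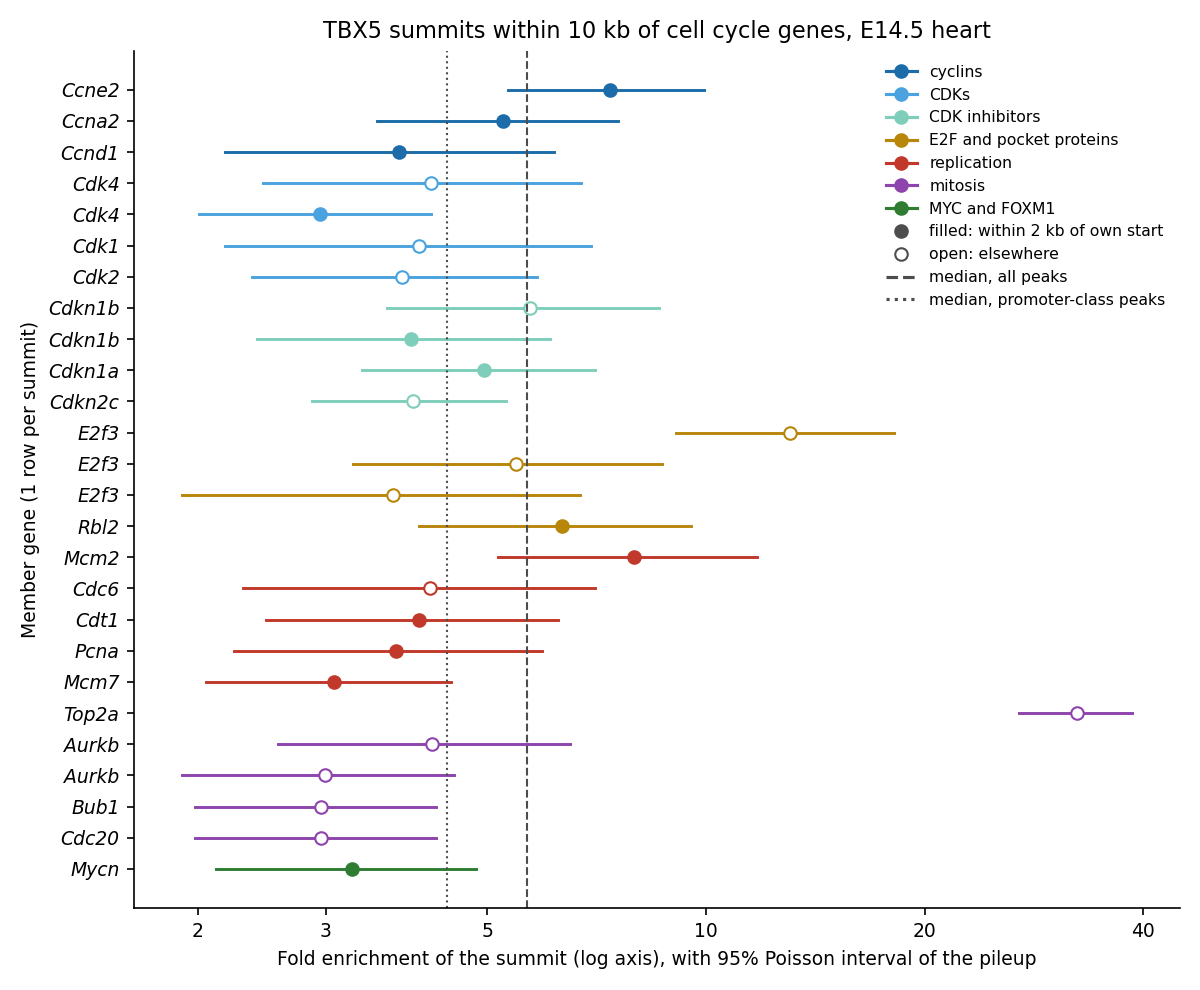
Fold enrichment of each of the 26 TBX5 summits within 10 kb of a member gene (log axis), with the 95% Poisson interval as a line and colours for roles. Filled points lie within 2000 bp of the member's own start. Most points lie left of the dashed line at the median of all peaks (5.67), and the Top2a row stands apart at 32.4-fold.

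Of the 19 promoter peaks 7 lay within 2000 bp of another gene's start and not of the member's own. A summit was therefore also placed against the member's own starts, a rule added after the peaks had been seen. Own starts came from the RefSeq promoter table for 33 members. For the 11 members with no entry there (Ccna2, Ccnd1, Ccnd2, Ccne2, Cdkn1c, Rb1, Mcm4, Aurkb, Cdc25c, Myc and Foxm1) they came from the start the authors' distance points to, where it lay in the member's body or at its edge. By this rule 12 of 44 members had a summit within 2000 bp of an own start, namely Ccna2, Ccnd1, Ccne2, Cdk4, Cdkn1a, Cdkn1b, Rbl2, Mcm2, Mcm7, Cdt1, Pcna and Mycn. Among the 33 with a RefSeq entry it was 9 (27.3%), against 12.6% of the 17274 protein-coding genes in that table. Split by role, own starts were bound in 6 of 16 cyclins, CDKs and inhibitors (37.5%, 15.2 to 64.6), in 4 of 9 replication genes (44.4%, 13.7 to 78.8) and in 0 of 8 mitosis genes (0%, upper limit 36.9%). Of the first 6, Ccna2, Ccnd1 and Ccne2 have no RefSeq entry, and their starts are known here only because a peak pointed to them. With RefSeq starts alone it was 3 of 11 cyclins, CDKs and inhibitors (27.3%; 0 of 4 cyclins) and 4 of 15 replication and mitosis genes (26.7%; 4 of 8 and 0 of 7), shares close to each other.

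**Figure D2:**
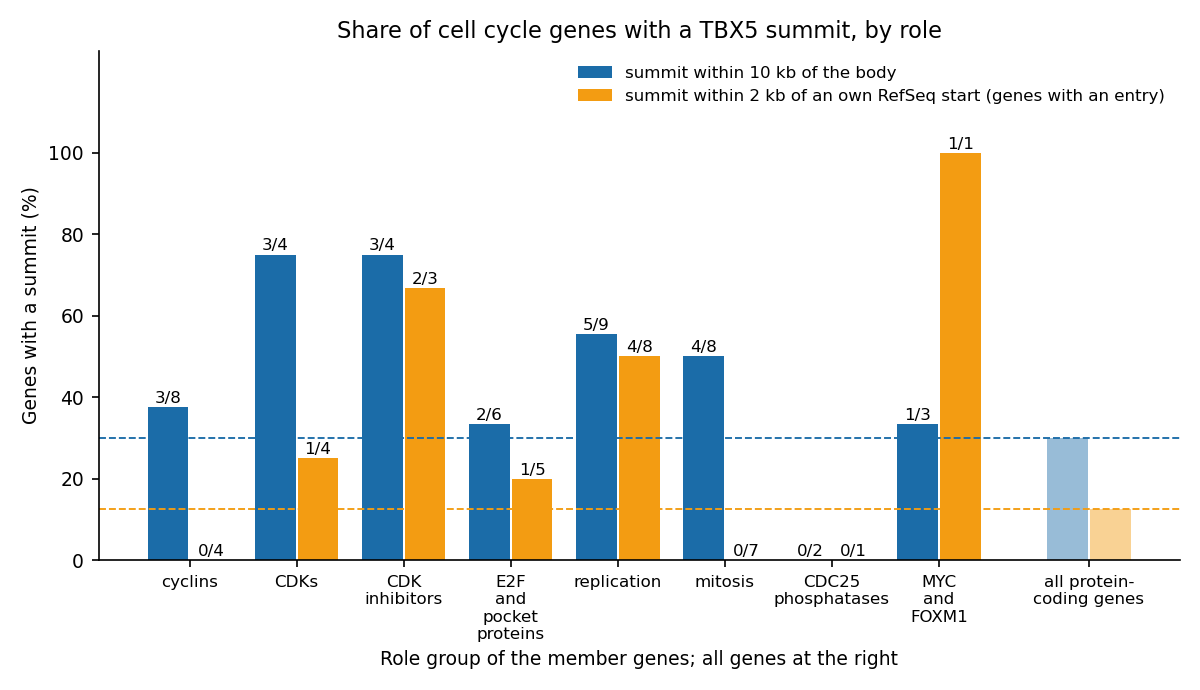
Share of member genes with a TBX5 summit in the body or within 10 kb (blue) and share of those with a RefSeq entry that have a summit within 2000 bp of an own RefSeq start (orange), by role. Counts stand above the bars, and the pale bars and dashed lines give 29.9% of all protein-coding genes and 12.6% of those with an entry. Mitosis genes reach 4 of 8 by the wide rule and 0 of 7 by RefSeq starts.

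Among the cyclins, which set the timing of CDK activity, the bound genes were Ccne2 and Ccna2, of the entry into and passage through S phase, and the G1 cyclin Ccnd1. Ccne2 had the strongest peak of the 16, 7.37-fold (5.34 to 9.94) from 41 fragments, at chr4:11191554-11191806, inside the gene body and 16 bp upstream of the start the authors' annotation assigned. The Ccna2 peak was 5.26-fold (3.53 to 7.56) from 27 fragments, at chr3:36572099-36572310 and 221 bp upstream of an assigned start. Both of these peaks overlapped TBX3 regions of the authors' annotation. Ccnd1 had a 3.78-fold peak (2.18 to 6.17) from 14 fragments at chr7:144938917-144939218, inside the gene body and 785 bp downstream of an assigned start. Each of the 3 summits lay in its cyclin's own body, and Ccne2 stood above the medians of all peaks and of promoter peaks while Ccnd1 stood below both. The mitotic cyclins Ccnb1 and Ccnb2, the D cyclins Ccnd2 and Ccnd3 and the other E cyclin, Ccne1, were not bound. Their nearest summits lay 127996, 79369, 159598, 58777 and 20858 bp from the body, in that order. The one nearest Ccne1 was 5.13-fold (3.01 to 8.25) with no other gene body closer to it.

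Of the kinases, Cdk4, Cdk2 and Cdk1 were bound, with strongest peaks of 3.82-fold to 4.18-fold. Cdk4, which pairs with D cyclins, had 1 summit 60 bp inside its start, 2.95-fold (2.01 to 4.19) from 29 fragments at chr10:127063298-127063754, over a TBX3 region. A further summit in its window, 4.18-fold (2.46 to 6.73) at chr10:127070248-127070429, lay 71 bp from the start of Tspan31. Cdk2, the partner of the E and A cyclins, was bound only by way of a summit 1351 bp beyond its body, 3.82-fold (2.37 to 5.86), which lay 319 bp from the start of Rab5b. Cdk1, the mitotic kinase, had a 4.03-fold summit (2.18 to 6.95) from 11 fragments, 12639 bp inside the gene from its start, with none of the 6 histone marks. Its interval spans the promoter median of 4.40 and the median of all peaks. Cdk6, a long gene of 190005 bp, had no summit, and the nearest was 65216 bp away.

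The inhibitors Cdkn1a and Cdkn1b, which encode p21 and p27, were bound at their own starts. Cdkn1a had a 4.94-fold peak (3.37 to 7.03) from 29 fragments at chr17:29093610-29093837, 29 bp upstream of the second of its 2 RefSeq starts, and the other start lies 2790 bp away. The Cdkn1b summit 384 bp inside the gene was 3.93-fold (2.41 to 6.09) at chr6:134920660-134920840, and both of these overlapped TBX3 regions. The stronger summit in the Cdkn1b window, 5.72-fold (3.64 to 8.61) from 21 fragments at chr6:134928294-134928505, lay 2845 bp beyond the body and 722 bp from the start of the long noncoding RNA gene Lockd. Cdkn2c, which encodes the CDK4 and CDK6 inhibitor p18, was the member just inside the window. Its 3.95-fold summit (2.87 to 5.31) lay 9742 bp from the body and 129 bp from the start of Faf1. Cdkn1c, which encodes p57, had no summit nearer than 62967 bp. Mki67 was the member just outside the window, at 12849 bp.

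The promoters of Cdkn1a and Cdk4 are shown because they were the only ones, among 7 members with a peak over their 300-base RefSeq promoter window (250 bases before to 50 after the start), in which the T-box core AGGTGT was found. The 250 bases before each start follow, 5′ to 3′ on the gene strand from RefSeq on GRCm38.p6, with matches to the core on either strand in capitals. They lie at chr17:29093519-29093768, plus strand, and chr10:127063285-127063534, plus strand. The third line is a stretch of 24 bases past the Cdkn1a start, at chr17:29093774-29093797, where a further match begins at base 14 and extends to the 8-letter form AGGTGTGA.
Cdkn1a: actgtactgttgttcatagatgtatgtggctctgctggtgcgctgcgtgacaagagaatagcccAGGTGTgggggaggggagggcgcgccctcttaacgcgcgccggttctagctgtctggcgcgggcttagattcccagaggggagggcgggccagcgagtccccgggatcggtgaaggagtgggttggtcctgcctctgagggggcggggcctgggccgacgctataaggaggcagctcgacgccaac
Cdk4: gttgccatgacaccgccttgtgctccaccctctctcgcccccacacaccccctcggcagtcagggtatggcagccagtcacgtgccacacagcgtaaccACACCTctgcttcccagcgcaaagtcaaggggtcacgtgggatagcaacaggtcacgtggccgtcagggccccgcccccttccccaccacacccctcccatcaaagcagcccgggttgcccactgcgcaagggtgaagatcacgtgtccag
Cdkn1a past the start: cagccgagAGGTGTgagccgccgc
The core was found in the windows of 5 of 33 members, against 14.8% of all genes in the table, and the 8-letter form, which contains the core, in 2 of 33, against 1.37%. Over all genes, with a match in any window of a gene counted, the core was in 19.2% of the 1520 with a peak over a window and in 14.4% of those without. The Cdkn1a match before the start lies 22 bases outside the peak, and the one past the start and that of Cdk4 lie inside their peaks. A match is a description of the letters, not a bound site.

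E2F factors and pocket proteins sit between the kinases and the replication genes. E2f3, an activating E2F, held 3 summits, none at its 2 RefSeq starts, and the strongest lay 6071 bp upstream of the nearer start. That peak, at chr13:29991977-29992290, was 13.0-fold (9.10 to 18.2) from 33 fragments, ranked 1258 of 12436 and carried none of the 6 histone marks. The other E2f3 summits, in the gene body, were 5.48-fold (3.27 to 8.70) and 3.71-fold (1.90 to 6.71), the first in the authors' poised class and the second in the active class. Rbl2, which encodes the pocket protein p130 found in resting cells, had a 6.34-fold peak (4.03 to 9.53) 34 bp inside its start, at chr8:91069991-91070174. E2f1, E2f2, Rb1 and Rbl1 had no summit, and their nearest ones lay 43455, 33254, 21524 and 45449 bp away. The one nearest Rb1, the founding pocket protein gene, was 7.69-fold (4.84 to 11.7) and 14751 bp from Itm2b. The one nearest E2f2, of 5.46-fold (3.44 to 8.30), lay 4802 bp from Id3.

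Of the 9 replication genes 5 were bound, and 4 of these had a summit within 2000 bp of an own start. Mcm2, a subunit of the replicative helicase, had the strongest of these peaks, 7.96-fold (5.17 to 11.8) from 23 fragments at chr6:88896642-88896874. Its summit lay 2000 bp inside the gene, on the edge of the promoter class, and the peak lacked H3K27ac. Mcm7 had a 3.08-fold peak (2.05 to 4.46) at chr5:138171084-138171265, 119 bp inside the nearer of its 2 RefSeq starts. The start of Ap4m1 lay 874 bp from the same summit, and the microRNA genes Mir106b, Mir93 and Mir25 in the Mcm7 body lay 5329 to 5743 bp from it. Cdt1 and Pcna had summits 61 bp inside and 212 bp upstream of their starts, of 4.04-fold (2.48 to 6.25) and 3.75-fold (2.24 to 5.95), and both overlapped TBX3 regions. The Pcna summit also lay inside the body of Cds2. Cdc6 had a 4.17-fold summit (2.31 to 7.04) from 12 fragments, 2013 bp inside the gene and just past the promoter limit. The helicase subunit genes Mcm3, Mcm4, Mcm5 and Mcm6 were not bound, with the nearest summits 793782, 568073, 58302 and 173186 bp away in that order.

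Among mitosis genes the bound calls came from peaks outside the gene bodies. Top2a, which encodes the topoisomerase that untangles chromosomes, had the strongest peak of all members, 32.4-fold (27.0 to 38.6) from 123 fragments, ranked 158 of 12436, at chr11:98985505-98985984. It lay 7199 bp beyond the Top2a body and 38441 bp from the Top2a start, but 2728 bp from Gjd3, a cardiac connexin gene. It was an active non-promoter peak over a TBX3 region. Bub1 and Cdc20, for the spindle checkpoint and its target, were counted through 2.95-fold peaks (1.98 to 4.25 each) that lay 53 bp from the start of Mtln and 41 bp from that of Elovl1. Aurkb, the kinase of chromosome segregation, had a 4.19-fold summit (2.57 to 6.50) at chr11:69041723-69041928, 3833 bp upstream of its start and 22 bp from the tRNA gene n-TWcca7, one of 7 tRNA genes within 5000 bp of it. Its other summit, 2.99-fold (1.90 to 4.50), lay 173 bp from the start of Borcs6. With the body alone, or the body and 2 kb, 0 of 8 mitosis genes were bound, against 19.2% and 24% of all genes.

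**Figure D3:**
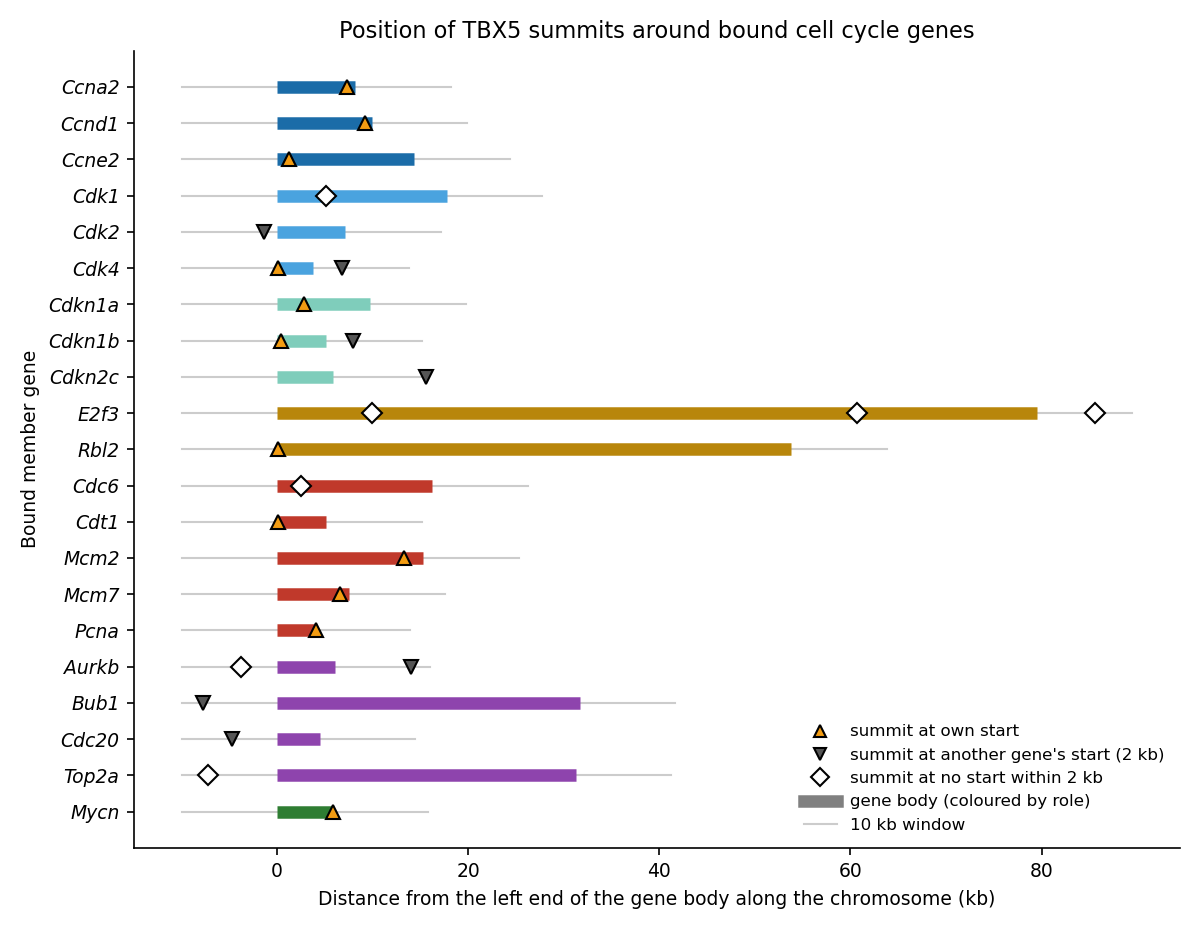
Position of the 26 summits relative to the bodies of the 21 bound members, in kb from the left end of each body along the chromosome. Bars are gene bodies coloured by role and thin lines the 10 kb windows; orange triangles mark summits within 2000 bp of an own start, grey triangles those at another gene's start and white diamonds the rest. The 4 mitosis genes have their 5 summits outside the bodies, while 10 of the 12 own-start summits lie inside.

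The remaining mitosis genes, Mki67, Bub1b, Aurka and Plk1, had no summit within the window. The peak nearest Mki67, the gene of a common proliferation marker, was 8.98-fold (6.03 to 12.9), of the poised class and inside the body of Ptpre. Aurka and Bub1b had summits 38227 and 52583 bp away, and Plk1 one at 92272 bp. Neither of the CDC25 phosphatase genes, whose products activate CDKs, was bound. The summit nearest Cdc25a was 4.21-fold (2.89 to 5.96), 37661 bp away and inside Map4, and that nearest Cdc25c lay 98480 bp away. Mycn, a MYC family factor that promotes growth of the fetal heart, had a 3.26-fold peak (2.12 to 4.83) from 23 fragments 49 bp upstream of its start, at chr12:12941751-12941948. Myc and Foxm1 had none, with the nearest summits 45914 and 210789 bp away. Over the 23 members that were not bound, the median distance to a summit was 58777 bp, against 106226 bp for all genes that were not bound, and 6 members had none within 100 kb. Genes without a summit had no peak past the threshold of the authors, and weaker binding there was not detectable at this depth.

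The promoter windows were also searched for other elements. E2F sites are known from replication genes, and the CCAAT box and the CHR element (TTTGAA) from genes of mitosis. In the 300-base windows, with both strands searched, CCAAT was found in 7 of 7 mitosis genes with an entry, against 42.7% of all genes, and TTTGAA in 6 of 7, against 18.0%. One of 3 E2F forms (TTTCGCGC or TTTGGCGC or TTCCCGCC) was found in 5 of 8 replication genes and in 0 of 7 mitosis genes, against 4.47% of all genes. The T-box core was in 0 of 7 mitosis windows, 1 of 8 replication windows and 3 of 11 windows of cyclins, CDKs and inhibitors. The GC box GGGCGG was found in 28 of 33 members, against 49.8% of all genes. Of the 7 members with a peak over a window it was found in 7, and of the 26 without one in 21. In the same order, CCAAT was found in 2 and 21, TTTGAA in 2 and 11, an E2F form in 3 and 8 and the T-box core in 2 and 3. For members and for all genes, a match in any window of a gene counts, even if the peak lies over another of its windows. At Mcm7 the E2F form was in the window without a peak. Over all genes the GC box was in 75.5% of those with a peak over a window and in 47.4% of those without, and CCAAT in 41.6% and 42.8%. These counts were not tested, and the letters say nothing of which factor was present.

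Mycn, with E2F matches, and Top2a, with CCAAT and CHR matches and no TBX5 peak at its start, are shown as examples of these counts. The 250 bases before the start are given for both, 5′ to 3′ on the gene strand (RefSeq, GRCm38.p6), at chr12:12941837-12942086, minus strand, and chr11:99024190-99024439, minus strand. Capitals mark the E2F forms in Mycn, where 2 of the 3 matches overlap each other, and the CCAAT and CHR matches in Top2a, all on either strand.
Mycn: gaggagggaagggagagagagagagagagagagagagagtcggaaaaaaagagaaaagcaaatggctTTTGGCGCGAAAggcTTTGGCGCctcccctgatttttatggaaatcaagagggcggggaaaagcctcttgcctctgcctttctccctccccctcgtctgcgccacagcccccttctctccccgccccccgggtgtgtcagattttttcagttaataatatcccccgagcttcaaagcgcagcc
Top2a: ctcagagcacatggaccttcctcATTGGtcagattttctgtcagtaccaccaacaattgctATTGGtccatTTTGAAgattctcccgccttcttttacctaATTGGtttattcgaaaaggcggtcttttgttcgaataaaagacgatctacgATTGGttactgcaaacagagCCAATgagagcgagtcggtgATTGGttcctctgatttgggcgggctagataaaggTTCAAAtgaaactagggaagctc
The Mycn matches begin 183, 179 and 168 bases before the start, and the summit lay 49 bases before it. All 3 lie outside the Mycn peak, by 49 to 64 bases. Top2a has 6 CCAAT matches between 227 and 58 bases before the start and CHR matches at 179 and 23.

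The chromatin annotation of the member promoter peaks was that of active promoters. Of the 19 promoter peaks, 19 lay in H3K4me3 and H3K9ac regions and 18 in H3K27ac regions, against 90.9%, 93.0% and 93.9% of all promoter peaks. H3K27me3, the mark of Polycomb repression, and H3K9me3 covered 0 of 26 member peaks, against 1.63% and 0.241% of all peaks, so few would fall on 26 peaks in any case. TBX3 regions were overlapped by 10 of the 19 promoter peaks (52.6%, 28.9 to 75.6), against 45.0% of all promoter peaks, a share within the interval. Over all member peaks it was 11 of 26 (42.3%, 23.4 to 63.1), against 27.0% of all peaks. Only E2f3, Cdk1, Cdc6, Top2a and Aurkb had summits outside the promoter class. TBX3 is a related T-box repressor of the conduction system, and the labels do not say in which tissue or stage its regions were mapped.

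The bound share of the members was set beside that of 103 other genes of the same pathway. In this wider list 29 genes were bound (28.2%, 19.7 to 37.9), close to the 29.9% of all genes, and among the 83 with a RefSeq start 13 had a summit there (15.7%), against 12.6%. Genes for origins and helicase activation had 2 of 15 bound and polymerase and nucleotide genes 3 of 19, against 7 of 19 other cyclin and CDK regulators and 6 of 13 other E2F, DREAM and MYB genes. Spindle and kinetochore genes had 5 of 20 bound and genes of cytokinesis and chromosome structure 6 of 17. The strongest peaks were at Fzr1 (17.2-fold, 13.3 to 21.9), an activator of the anaphase-promoting complex, Espl1 (14.4-fold, 10.9 to 18.7), which encodes separase, and Cdc25b (13.0-fold, 10.1 to 16.4). The Cdc25b peak lay 459 bp upstream of an own start and the Espl1 peak 6441 bp inside the gene. That of Fzr1 lay 3268 bp beyond its body, with another gene's body nearer and Mfsd12 and 4930404N11Rik within 10 kb. At Ccng2, an atypical cyclin of cells leaving the cycle, the 9.17-fold summit (7.03 to 11.8) was 224 bp before its start. Cenpf and Spc24, of the kinetochore, had 10.5-fold (7.12 to 15.0) and 7.26-fold peaks (4.83 to 10.5). The Cenpf summit lay 7408 bp upstream of its start, outside the promoter class. That of Spc24 lay 44 bp outside its body, with no own start used and Kank2 also within 10 kb. For the replication groups the strongest were Gins1 (6.04-fold) and Orc3 (4.41-fold), of helicase activation and origin recognition, and Prim1 (5.71-fold) and Rpa2 (4.39-fold), of priming and single-strand binding. The Orc3 summit lay 53 bp upstream of its own start and 38 bp from that of Rars2. E2f4 (5.08-fold) and Lin37 (5.06-fold) encode an E2F and a subunit of the DREAM complex. The E2f4 summit lay in its body, but no own start was used for it, and Exoc3l, Elmo3 and Lrrc29 were also within 10 kb. That of Lin37 lay 164 bp upstream of an own start, with 6 other coding genes within 10 kb.

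The shares of the role groups were also taken with other windows, again as a description without a test. No difference between the groups is claimed with any window. With the gene body alone 7 of 16 cyclins, CDKs and inhibitors were bound (43.8%), against 4 of 17 replication and mitosis genes (23.5%), beside 19.2% of all genes. With 50 kb it was 10 of 16 (62.5%) and 11 of 17 (64.7%), beside 49.8% of all genes. The difference for the body alone was 20.2 percentage points, with an interval over genes of −11.2 to 47.2, which includes 0.

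**Figure D4:**
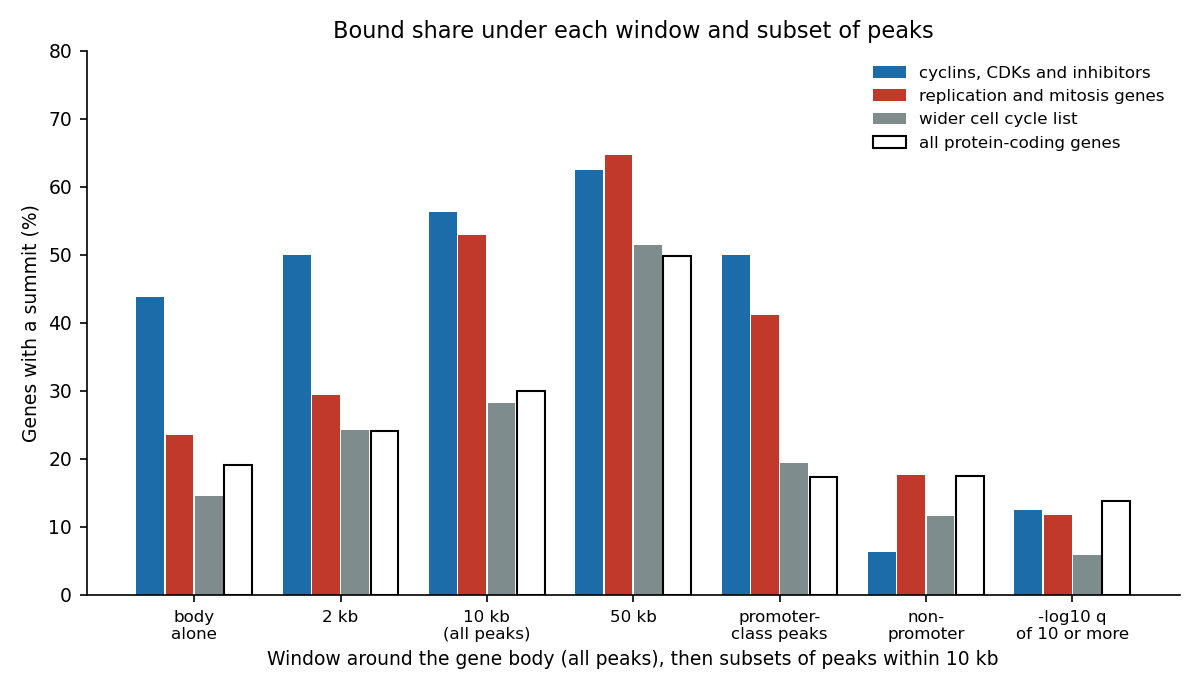
Share of genes with a TBX5 summit for cyclins, CDKs and inhibitors (blue), replication and mitosis genes (red), the wider cell cycle list (grey) and all protein-coding genes (white), under 4 windows and 3 subsets of peaks. The blue and red bars stand above the white ones for promoter-class peaks (50.0% and 41.2%, against 17.3%) and not for the stricter peaks by −log10 q (12.5% and 11.8%, against 13.8%).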

How the data were processed

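The submitters' processing notes name Bowtie2, SAMtools, MACS2, ChIPseeker and the build mm10, with no version or setting. Fragments of 200 to 650 bp were sequenced single end (50 bases), per the labels. File and peak names show 1 call on both TBX5 samples together. The fold of each peak is a deposited ratio, ChIP fragments plus 1 over background plus 1. The −log10 p and −log10 q are those the authors deposited with it, and the score of the authors restates q and was not used. These values served to describe, rank and filter peaks, and fold and −log10 p also to solve the fragment counts. Depths of single samples are unknown here, and the intervals of folds cover counting error only.

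The summit fragment count was solved from fold and −log10 p for all 12436 peaks (largest misfit 0.000242; 100% of 500 simulated peaks recovered). Its exact 95% Poisson interval, with the background held fixed, gave the interval of a fold. Shares have Clopper-Pearson intervals, and differences of shares have intervals built from Wilson limits. Both treat genes as independent. Gene bodies are those of RefSeq GRCm38.p6, the same assembly as mm10, counted from 1. All 44 members matched by symbol, and 33 had an entry in the promoter table. Every member is named, the 10 with the strongest peak and the 5 nearest misses in full, with the 2 strongest bound genes of each group of the wider list. Members, lists and groups were chosen with earlier results of these data known, so no test was made on them. The work used scipy 1.17.1 for intervals, pandas 2.3.3 and numpy 2.4.6 for tables and matplotlib 3.10.9 for plots, under Python 3.11.15. Alternatives were other windows, peak subsets, nearest-gene assignment and groupings.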

Additional observations from a re-analysis of the deposited data

How the results depend on the processing

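Counts of bound members were 13 with the gene body alone, 5 with −log10 q of at least 10, 6 with peaks at or above the median fold, 5 with non-promoter peaks and 12 by own starts, against 21 with all peaks within 10 kb. In the same order, replication and mitosis genes gave 4, 2, 2, 3 and 4 (5 with 2 kb), against 9. Cyclins, CDKs and inhibitors gave 2 with the q threshold, 2 with the fold threshold and 1 with non-promoter peaks, against 9. The wider list gave 15, 6, 9, 12 and 14, and 53 with 50 kb, against 29. Over all protein-coding genes the bound share moved too, from 29.9% to 19.2% with the body alone and 49.8% with 50 kb. With the body alone the members had 29.5% and the wider list 14.6%, and with 50 kb 68.2% and 51.5%. All genes had 13.8% with the q threshold, 15.0% with the fold threshold and 17.5% with non-promoter peaks. There the members had 11.4%, 13.6% and 11.4%, and the wider list 5.83%, 8.74% and 11.7%. The cause was not tested beyond the construction of these rules, which use fewer peaks or other windows. The other settings (2 kb and 50 kb windows, promoter peaks, nearest gene, any base of the peak) kept the member count within 1.5 times, at 16 to 30. The difference between the roles, 3.31 points, reversed to −2.21 with 50 kb and −11.4 with non-promoter peaks. It also reversed, to −2.94, with E2F and pocket protein genes added to the cyclins, CDKs and inhibitors. Every interval over genes included 0, and none of them is a test. The strongest fold moved outside its interval for 1 of 13 members with the body alone (E2f3, 5.48) and for 3 of 21 with 50 kb (Cdk2 11.7, Aurkb 11.2 and Cdc20 5.11). The own-start rule, chosen after seeing the data, can miss starts of genes without a RefSeq entry. No paired analysis was possible because peaks were called on pooled samples; no replicate could be left out for the same reason.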
